A study of Oryza sativa with 2 samples.

Results

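The plastid genes rpoB, rpoC1 and rpoC2 encode the β, β′ and β″ subunits of the plastid-encoded RNA polymerase, a bacterial-type enzyme of the chloroplast. They were followed here as 3 identifiers, OrsaiCp08, OrsaiCp09 and OrsaiCp10, of 57343 in the gene table and of 65 in the OrsaiCp series. The identifiers were taken by name. The RNA came from Minghui 63 (MH63), a rice line that is a parent of the hybrid Shanyou 63, sequenced after removal of ribosomal RNA in 2 libraries that form a single group. The wider study mapped which RNAs touch chromatin bearing the promoter mark H3K4me3, and those data were not analysed here. The labels name no transgene, mutation or agent for either library. Seeds were soaked for 72 h at 37 °C before sowing, and the day had 14 h of light and 10 h of dark, at 32 and 28 °C. Plants were 2 weeks old at collection, at 8:00. The tissue label reads seedling and the extraction protocol names leaves. With a single group there was no treatment or genotype to compare, so the comparisons are among identifiers within a library and between the libraries. Whether different plants gave rise to each library is not stated in the labels. The p-values between the libraries allow for counting error alone, so a call cannot tell technical from biological differences.

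In plants the chloroplast genome is read by the plastid-encoded polymerase, whose core also has the α subunit from rpoA, and by a phage-type polymerase encoded in the nucleus. The rpoB, rpoC1 and rpoC2 genes lie in this order in an operon, and the nuclear-encoded enzyme is known to transcribe that operon. The plastid-encoded enzyme, joined by nuclear-encoded sigma factors, then transcribes most photosynthesis genes. The β and β′ subunits form the catalytic centre in the bacterial counterpart, where the parts held by plastid β′ and β″ are a single protein.

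The names rest on length and order, because the deposited files give identifiers only. OrsaiCp08 had a length of 3228 bases, OrsaiCp09 of 2049 and OrsaiCp10 of 4542, each a multiple of 3. They equal rpoB, rpoC1 and rpoC2 of the plastid genome in a japonica RefSeq gene table (assembly ASM3414082v1). No other plastid protein-coding gene of that table and no other OrsaiCp identifier has any of these lengths. From OrsaiCp08 to OrsaiCp13, 6 consecutive lengths equal the consecutive plastid genes rpoB, rpoC1, rpoC2, rps2, atpI and atpH. Of 64 OrsaiCp identifiers with a length, 52 can be matched to plastid protein-coding lengths in the same order as in that table. The lengths alone are not unique, since 9, 19 and 6 identifiers of the MH series, which makes up nearly all of the table, share the lengths of OrsaiCp08, OrsaiCp09 and OrsaiCp10. Below, rpoB, rpoC1 and rpoC2 mean these 3 identifiers, and the other plastid symbols are length matches of the same kind.

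Library 1 held 18096722 gene counts and library 2 held 18799901, of which OrsaiCp identifiers took 9000286 and 9479846. Entries aligned in more than 1 place were not counted. They were 27.7% of the sum of gene counts and counting summary lines in library 1 and 25.8% in library 2, and the tables do not show which genes they touch. Leaf marker genes of the nuclear genome were not analysed here, since the files pair no identifier with a name.

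The 3 subunit genes of the operon were present at very unequal levels. In counts per kb of gene length, rpoC2 was the highest, rpoB was several-fold lower, and rpoC1 was close to the counting limit. The order was the same in both libraries, and no interval of one gene reached that of the next.

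The rpoB identifier, for the β subunit, had 667 counts in library 1 and 635 in library 2. Per length this was 207 counts per kb (95% exact Poisson interval 191 to 223) in library 1 and 197 (182 to 213) in library 2. These intervals overlap, and the mean FPKM, the authors' depth-scaled level per kb, was 10.9 ± 0.675 (SD, n = 2 libraries). The intervals cover counting error alone, as the libraries carried no molecular identifiers.

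The rpoC1 identifier, for the β′ subunit, had 13 counts in library 1 and 6 in library 2. That is 6.34 counts per kb (95% exact Poisson interval 3.38 to 10.8) in library 1 and 2.93 (1.07 to 6.37) in library 2, again with overlapping intervals. The FPKM was 0.253 ± 0.138 (SD, n = 2), an SD of 54.4% of the mean, where counting alone gives a coefficient of variation of 27.7% in library 1 and 40.8% in library 2. Both values lie above 1.46 counts per kb, the limit that a count of 0 allows for a gene of this length. The identifier thus had counts above that limit in both libraries, but the library 2 interval, from 1.07, reaches below it. Its level is known only roughly at this depth. It also rests on the authors' alignment and counting: how many reads of rpoC1 were left out for aligning in more than 1 place, copies of plastid DNA in the nuclear genome included, was not tested, and the strand setting of the counting is not given in the sources used here. In RNA from whole tissue, fewer cells with a transcript and less of it per cell cannot be told apart.

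The rpoC2 identifier, for the β″ subunit, had 4322 counts in library 1 and 4240 in library 2. Its level was 952 counts per kb (95% exact Poisson interval 923 to 980) in library 1 and 934 (906 to 962) in library 2. The FPKM was 51.1 ± 2.07 (SD, n = 2), the steadiest of the operon, with an SD of 4.05% of the mean.

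**Figure D1:**
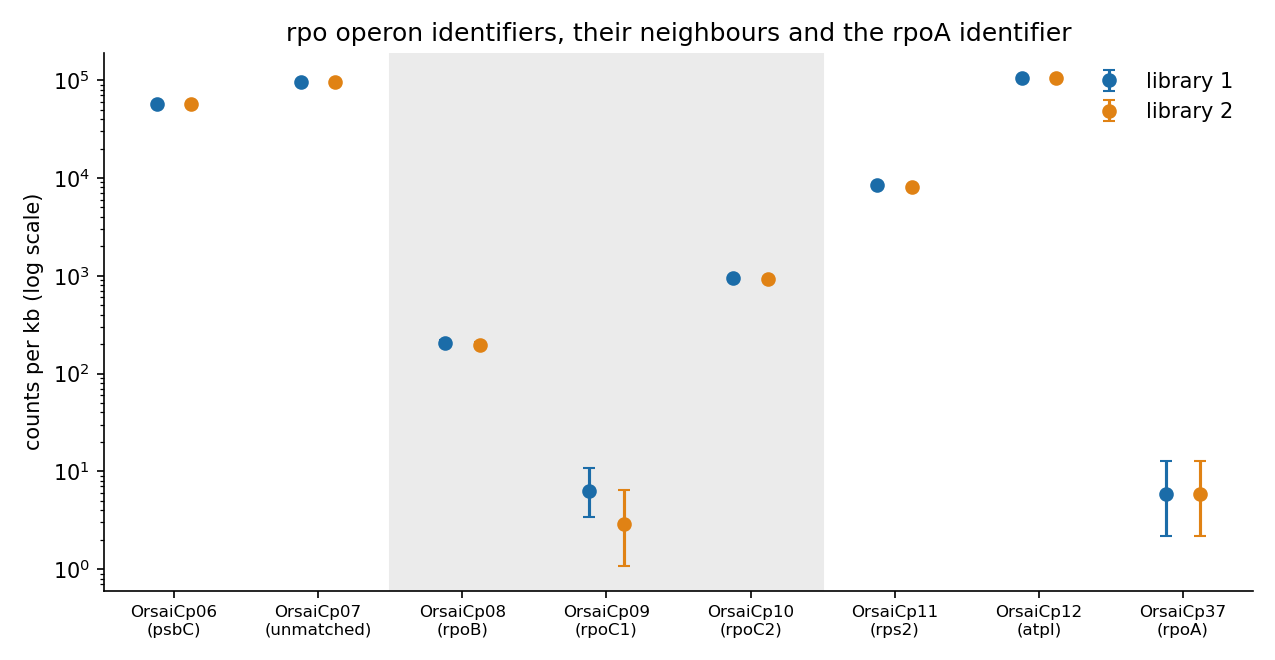
Counts per kb (log scale) in library 1 (blue) and library 2 (orange) for the rpoB, rpoC1 and rpoC2 identifiers (grey band), for the 2 identifiers before and after them in number order, and for the rpoA identifier. Bars are 95% exact Poisson intervals, smaller than the points where not seen. The rpoC1 and rpoA identifiers sit below 10 counts per kb in both libraries, and rpoB and rpoC2 lie between them and the neighbours.

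Within a library, ratios between the genes need no scaling for depth. The rpoC1 level was 0.0307 of the rpoB level in library 1, with a 95% Clopper-Pearson interval from 0.0163 to 0.0529, and 0.0149 of it in library 2, from 0.00544 to 0.0326. At the rpoB level per kb, rpoC1 would have had 423 counts in library 1 and 403 in library 2, against the 13 and 6 counted. The rpoC2 level was 4.61 times that of rpoB in library 1 (4.24 to 5.004) and 4.75 times in library 2 (4.36 to 5.17). Set against rpoC1, rpoC2 was 149.98 times as high in library 1 (87.6 to 282) and 319 times in library 2 (146 to 869).

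These ratios were then compared between the libraries. Over the 3 pairs, the two-sided Fisher's exact test with Benjamini-Hochberg adjustment gave an adjusted p of 0.251 for rpoC1 over rpoB, 0.634 for rpoC2 over rpoB and 0.251 for rpoC2 over rpoC1. No pair passed the threshold of 0.05. For rpoC2 over rpoB the intervals of the libraries nearly coincide, whereas those that involve rpoC1 are wide and would hide a difference of about the size seen between the libraries.

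Seen as shares, rpoC2 held 86.4% of the operon's counts in library 1 and 86.9% in library 2, on 46.3% of its length. The rpoB share of counts was 13.3% and 13.0% in libraries 1 and 2, on 32.9% of the length. The rpoC1 share was 0.260% and 0.123%, on 20.9% of the length. The unevenness was therefore far larger than differences in gene length, and it took the same shape in both libraries.

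**Figure D2:**
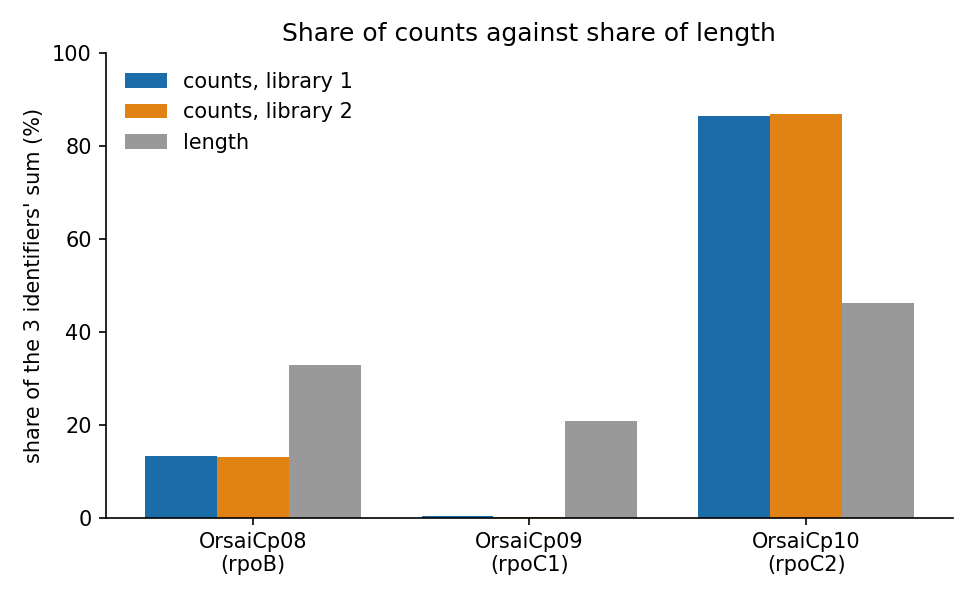
Share (%) of the summed counts of the 3 rpo identifiers in library 1 (blue) and library 2 (orange), beside each identifier's share of their summed length (grey). The rpoC2 identifier holds 86.4% and 86.9% of the counts on 46.3% of the length, and the rpoC1 bars for counts are barely above 0.

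The α subunit gene rpoA lies elsewhere in the plastid genome, beside ribosomal protein genes. Its identifier, OrsaiCp37, is 1014 bases long and had 6 counts in library 1 and 6 in library 2, or 5.92 counts per kb in each. The level of rpoC1 over that of rpoA was 1.07 in library 1, from 0.380 to 3.44 by the same kind of interval, and 0.495 in library 2, from 0.132 to 1.85, so they could not be told apart at this depth. By contrast, rpoB stood at 34.9 times the rpoA level in library 1 (15.96 to 95.5) and 33.2 times in library 2 (15.2 to 90.9). For rpoC2 the ratio to rpoA was 161 (73.8 to 438) in library 1 and 158 (72.4 to 430) in library 2. The core subunit genes thus fell into a pair at at 2.93 to 6.34 counts per kb, rpoA and rpoC1, and a pair far above it, rpoB and rpoC2.

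Against the other plastid identifiers the operon was low. Its 3 genes together had 509 counts per kb in library 1 and 497 in library 2, against a median of 11748 and 11395 over the other 61 OrsaiCp identifiers with a length. They made up 20.05% of the OrsaiCp length and 0.0556% of the OrsaiCp counts in library 1 and 0.0515% in library 2. With OrsaiCp01, the identifier with most counts, left out of the total, the shares were 0.309% and 0.299%. Identifiers are not replicates, so no test was made of this difference.

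In the order of levels per kb among the 64 OrsaiCp identifiers, rpoC2 was 43rd from the top in both libraries and rpoB was 51st in both. The rpoC1 identifier was 62nd in library 1 and 64th, the lowest, in library 2. By mean level the identifier just above rpoC1 was rpoA, and their intervals overlap in both libraries. Next below rpoB was OrsaiCp63, which has the length of rps7, and next above was OrsaiCp66, of a length that rpl23 and rps19 share. OrsaiCp63 had 225 and 151 counts per kb in libraries 1 and 2, and OrsaiCp66 had 163 and 266, so the order around rpoB changed between the libraries. Next below rpoC2 was OrsaiCp46, with 904 and 730 counts per kb, and its interval overlaps that of rpoC2 in library 1 only. Next above rpoC2 was OrsaiCp52, of a length that ndhF and psaB share, at 2132 and 2244 counts per kb, clear of it in both libraries.

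The identifiers closest in level, by the absolute difference of the mean log2(FPKM + 0.1) over both libraries, were mostly of ribosomal protein length. For rpoB they were OrsaiCp66, at a distance of 0.05, and OrsaiCp63, at 0.13. For rpoC1 they were OrsaiCp37 (rpoA), at 0.31, and OrsaiCp64, at 0.57, whose length rpl23 and rps19 share. For rpoC2 they were OrsaiCp46, at 0.21, and OrsaiCp49, with the length of rps7, at 0.31. The rps7 and rpl23 genes each have 2 rows in the reference plastid table, so reads of these identifiers may fit more than a single place and their levels are uncertain. The rpoB, rpoC1, rpoC2 and rpoA genes have 1 row each there, which says nothing of copies in the nuclear genome, so reads of these genes too may have been left out.

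Set against the whole table, rpoC2 and rpoB stood high, although 44.1% of the identifiers with an FPKM were at 0 in library 1 and 46.2% in library 2. The FPKM of rpoC2 was above 98.7% of all 57342 identifiers with an FPKM in both libraries, and that of rpoB was above 94.1% of them in library 1 and 93.7% in library 2. The rpoC1 FPKM, under 1 in both libraries, was above 68.9% of them in library 1 and 63.1% in library 2, most of which were at 0. Both libraries had an FPKM of at least 1 for 2 of the 3 operon genes, rpoB and rpoC2, against 23.4% of all identifiers and 89.1% of the OrsaiCp identifiers.

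The operon lies between identifiers with far higher levels. Before it, OrsaiCp06, with the length of the photosystem II gene psbC, had 56753 counts per kb in library 1 and 57170 in library 2. OrsaiCp07, whose length of 207 matches no plastid protein-coding gene of the table, had 96319 and 95072. From OrsaiCp07 to rpoB the level per kb changed 466-fold in library 1 and 483-fold in library 2, the fourth largest step among 63 between consecutive OrsaiCp identifiers in both libraries. The step from rpoC1 to rpoC2 was also among the largest, ranked 7 in library 1 and 5 in library 2. The step from rpoB to rpoC1 was 32.6-fold in library 1 and 67.2-fold in library 2, ranked 15 and 10. On the log2 scale it was -5.03 and -6.07, against a median absolute step of 2.74 and 2.71 on that scale.

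Downstream, the levels climbed from gene to gene. OrsaiCp11, with the length of rps2, a small ribosomal subunit protein gene, had 8473 counts per kb in library 1 and 8045 in library 2, 8.90 and 8.62 times the rpoC2 level. OrsaiCp12, with the length of atpI, which encodes a membrane subunit of ATP synthase, had 105980 and 105003. The rise from rpoC1 through rpoC2 and rps2 to atpI was seen in both libraries.

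**Figure D3:**
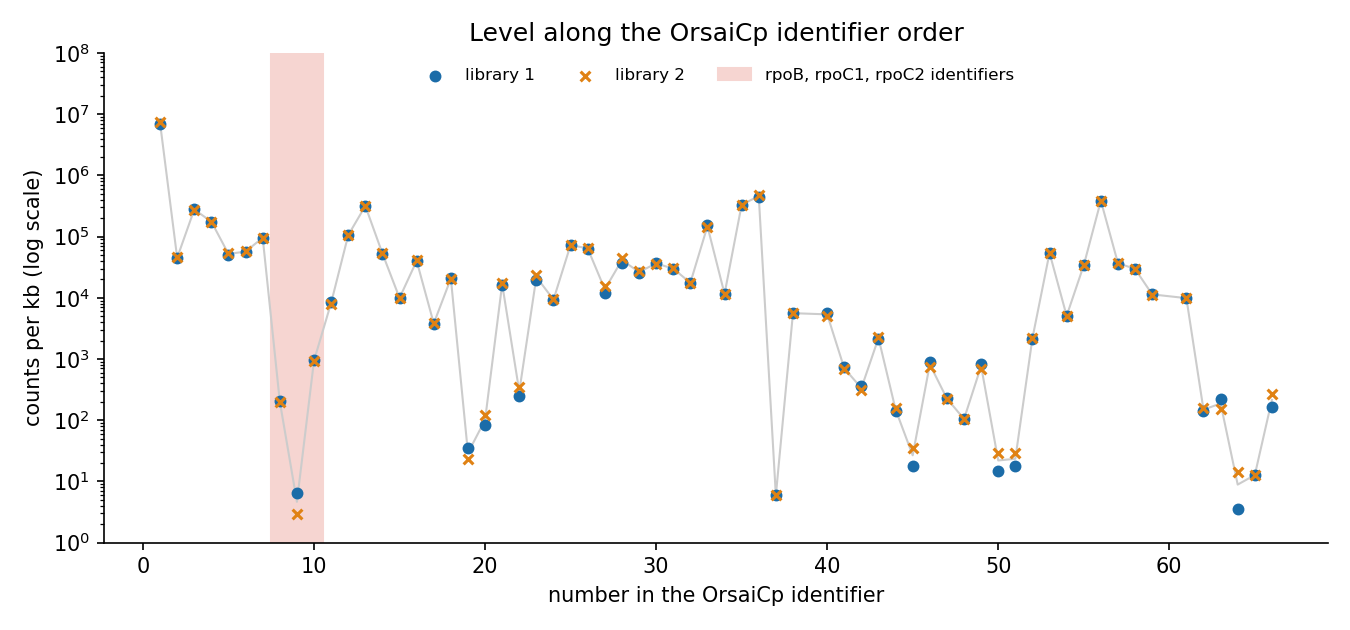
Counts per kb (log scale) of the 64 OrsaiCp identifiers with a length, by the number in the identifier, in library 1 (blue circles) and library 2 (orange crosses), with the 3 rpo identifiers in the red band and a grey line through the means. The band holds a trough of 207 and 197, 6.34 and 2.93, and 952 and 934 counts per kb between neighbours at 96319 and 95072 and at 8473 and 8045. OrsaiCp37, the rpoA identifier, forms another narrow trough.

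Unequal levels within a run of neighbouring genes were also seen elsewhere in the plastid series. Both runs given next were chosen after their values were seen. Within the operon of rpoB, rpoC1 and rpoC2 the highest level was 149.98 times the lowest in library 1 and 319 times in library 2. Among ndhC, ndhK and ndhJ, genes of the chloroplast NADH dehydrogenase-like complex, the highest was 462 times the lowest in library 1 and 749.99 times in library 2. From OrsaiCp11 (rps2) to OrsaiCp14 (atpA), 4 consecutive identifiers, it was 37.9 times in library 1 and 38.9 times in library 2, with OrsaiCp13 the highest, which atpH matches by order and whose length psaC shares.

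By function, the 4 polymerase genes had a median of 106 counts per kb in library 1 and 101 in library 2. The 5 photosystem II identifiers had a median of 56753 and 57170 counts per kb in libraries 1 and 2, from psbK at 280280 and 275108 down to psbF at 12175 and 15325. The only photosystem I match, psaA, had 3684 and 3926, the only cytochrome b6f match, petA, had 63071 and 64845, and the ATP synthase matches were atpI, given above, and atpA, at 52095 and 53840. Of these 9 identifiers, 0 lay below rpoC2 in both libraries. OrsaiCp01 and OrsaiCp05, with a length that the photosystem II genes psbA and psbD share, were put in no class. They do not enter the photosystem II median and range. OrsaiCp01 had 6949780 and 7390580 counts per kb in libraries 1 and 2, far above psbK, and OrsaiCp05 had 50118 and 53941. OrsaiCp22 and OrsaiCp43, with a length shared by atpE and unnamed reading frames, were also put in no class. OrsaiCp22, next after the ndhJ, ndhK and ndhC identifiers, had 244 and 345 counts per kb, below rpoC2 in both libraries. OrsaiCp43 had 2087 and 2309, above rpoC2. If OrsaiCp22 is atpE, an ATP synthase gene lay below rpoC2.

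Among identifiers put in a class, those that reached down to the operon were of the ribosome and of the NADH dehydrogenase-like complex. The 11 small-subunit ribosomal identifiers had a median of 832 and 696 counts per kb in libraries 1 and 2, from rps18 at 29858 and 30220 to OrsaiCp50 (rps15) at 14.7 and 29.3, and 6 of them lay below rpoC2 in both libraries. These 6 include OrsaiCp49 and OrsaiCp63, both of rps7 length, and OrsaiCp50 and OrsaiCp62, both of rps15 length. The rps7 and rps15 genes each have 2 rows in the reference plastid table, so the levels of these 4 identifiers are uncertain. The class median is the level of OrsaiCp49, and the lowest level is that of OrsaiCp50. The 3 large-subunit identifiers had a median of 358 and 312, from rpl33 at 36786 and 35990 to rpl22 at 17.8 and 35.6, with 2 below rpoC2. The 7 NADH dehydrogenase-like identifiers had a median of 16361 and 17187, from ndhE at 36167 and 37418 to ndhJ at 35.4 and 22.9, with 2 below rpoC2. The 5 other matches had a median of 17575 and 17519, from ycf4 at 74108 and 72066 to ccsA at 5034 and 5100, with 0 below rpoC2. In all, 19 of the 61 other identifiers lay below rpoC2 in both libraries, of which 8 had no class. Below rpoB in both libraries were 11, among them rpoA.

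**Figure D4:**
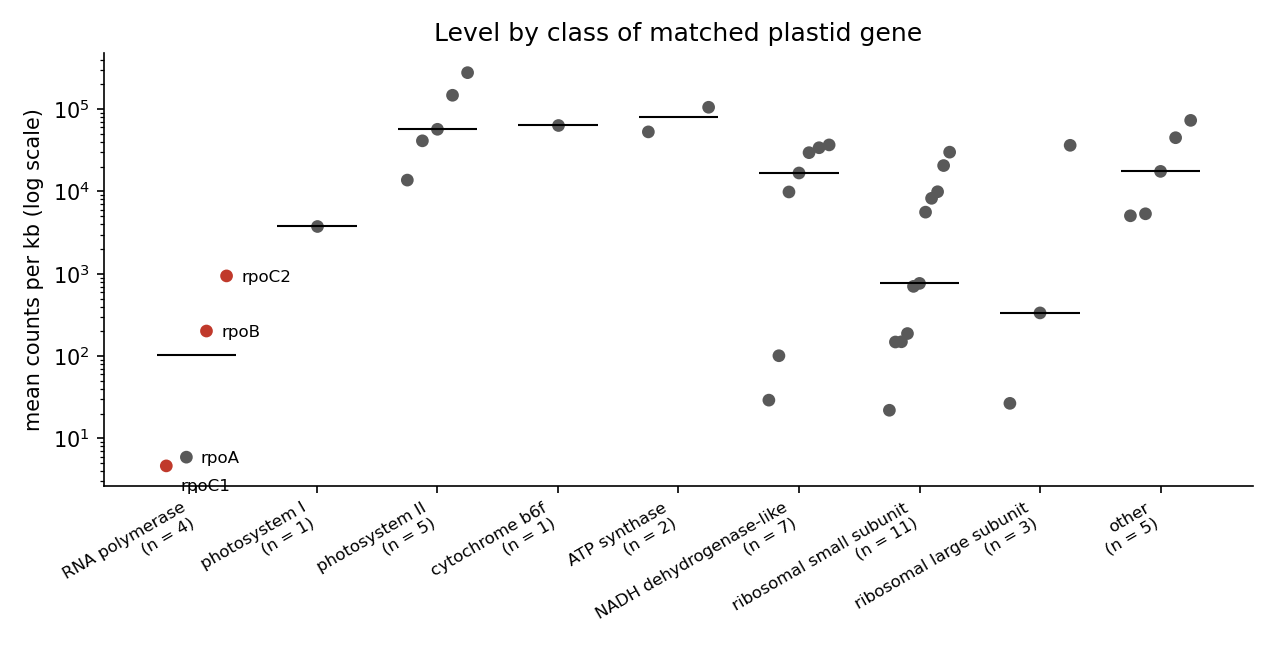
Mean counts per kb over both libraries (log scale) for the 39 OrsaiCp identifiers whose length matches a single plastid symbol, by class, with a line at each class median. The rpoB, rpoC1 and rpoC2 identifiers are red, and rpoA lies beside rpoC1 at the bottom. All photosystem, cytochrome b6f and ATP synthase matches shown lie above rpoC2. OrsaiCp22, whose length atpE shares with unnamed reading frames, lies below rpoC2 and is not shown. OrsaiCp01 and OrsaiCp05, whose length psbA and psbD share, lie above rpoC2 and are not shown either.

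The libraries were compared gene by gene by the exact binomial test on counts, two-sided, scaled by TMM (edgeR's trimmed mean of M-values), with Benjamini-Hochberg adjustment over all 19770 identifiers with 10 or more counts. Of the 3 operon genes, 0 had an adjusted p under 0.05, against 0.678% of all identifiers tested and 24.2% of the OrsaiCp identifiers, and 0 had an unadjusted p under 0.05. Read against that background, the count says little about the operon.

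The rpoB level in library 1 was 1.07 times that in library 2 (95% interval 0.960 to 1.20, log2 ratio 0.10, adjusted p = 0.829 by the exact binomial test). For rpoC2 the ratio was 1.04 (0.997 to 1.09, log2 ratio 0.06, adjusted p = 0.658 by the exact binomial test). For both genes the intervals reach no further than 0.960 and 1.20. The ratio for rpoC1 was 2.21 (0.784 to 7.09, log2 ratio 1.08, adjusted p = 0.711 by the exact binomial test), so a difference of several-fold between the libraries would not have been detectable. The 3 ratios all lay above 1.

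Of the 62 OrsaiCp identifiers tested, 15 had an adjusted p under 0.05, 8 higher in library 1 and 7 higher in library 2. That split was 3 and 12 with DESeq2 size factors, 16 and 6 with total gene counts and 23 and 5 with OrsaiCp totals. The DESeq2 size factors were 1 for both libraries, so that alternative compared counts not scaled for depth. Of the neighbours, rps2 was higher in library 1 (log2 ratio 0.10, adjusted p = 0.0200 by the exact binomial test) and so was atpI (log2 ratio 0.04, adjusted p = 3.7e-06 by the exact binomial test). Neither call held with DESeq2 size factors, where rps2 had a log2 ratio of 0.07 (adjusted p = 0.223 by the exact binomial test) and atpI one of 0.01 (adjusted p = 0.61 by the same test). At TMM scaling the rps2 ratio was about the size of that of rpoB, on 6024 and 5720 counts in libraries 1 and 2 against 667 and 635 for rpoB. The test sets these libraries against each other and not conditions. It allows for counting error alone, so at high counts even a small difference, as for atpI, is called.

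**Figure D5:**
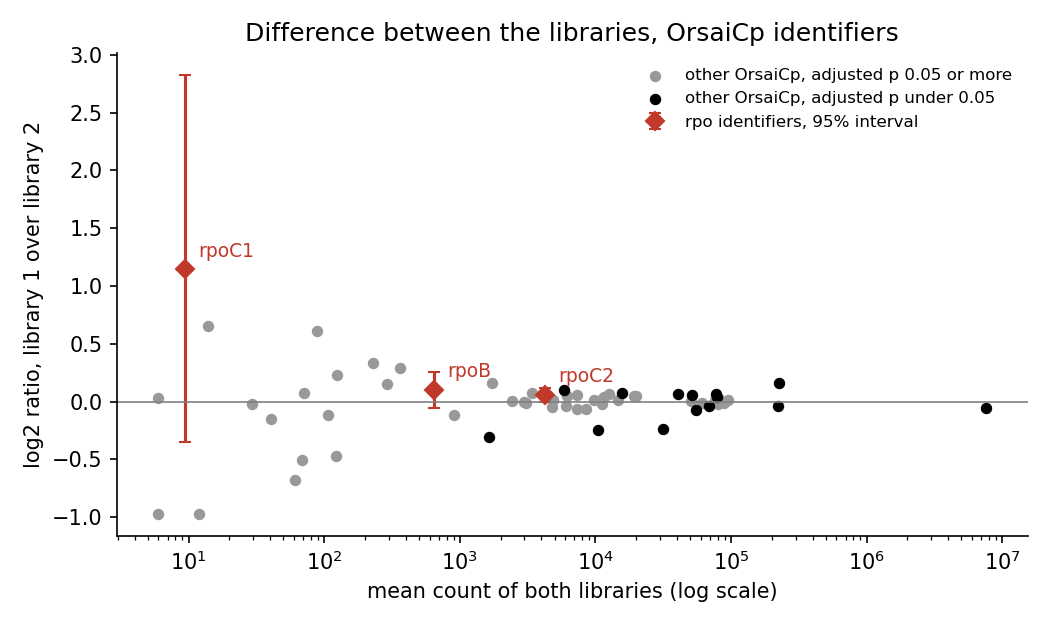
Log2 ratio of library 1 over library 2, without a pseudocount, against the mean count (log scale) for the 62 tested OrsaiCp identifiers, black where the adjusted p was under 0.05 and grey otherwise. The rpo identifiers are red diamonds with 95% intervals, which include 0 for all 3 and widen from rpoC2 over rpoB to rpoC1.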

How the data were processed

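Both libraries were sequenced as read pairs of 150 bases from 2 µg of total RNA prepared with a strand-marking kit, per the labels' protocols. Trimmomatic, HISAT2 and HTSeq are named, per the submitters' processing notes. Versions, genome build, annotation and strand setting are not given in the sources used here, so reads of overlapping antisense RNA may be included. The deposited counts are raw whole numbers per gene. The FPKM column is the authors' own, per the file headers, and it was recomputed here to within 5.0e-06 from count, length and gene total. The column of upper-quartile FPKM was not used. The 5 counting summary lines entered neither library sizes nor tests, and their shares include unaligned entries (6.15% and 4.31%).

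Counts per kb used the deposited lengths. Count intervals are exact Poisson and ratio intervals are conditional Clopper-Pearson, at 95%. A pseudocount of 0.5 entered the log2 ratios. The zero limit is 3 counts per library. Neighbours in number order, closest identifiers, rpoA and class extremes were named by rule. The members and lists were chosen with earlier results of these data known. The tools were scipy 1.17.1, pandas 2.3.3 and numpy 2.4.6 in Python 3.11.15, with edgeR 4.0.16 in R 4.3.3 for TMM and, as an alternative, size factors of DESeq2 1.42.0. Alternatives covered scaling, filters, pseudocounts, length and leaving out either library.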

Additional observations from a re-analysis of the deposited data

Results flagged for a closer look

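Several signals lay outside the comparisons of levels and far above the limit of 3 counts that a count of 0 allows. OrsaiCp60 has no length and so no level per kb, and it had 28780 counts in library 1 and 28030 in library 2, more than the 3 rpo identifiers together (5002 and 4881). As shares of gene counts plus summary lines, 27.7% in library 1 and 25.8% in library 2 were entries aligned in more than 1 place, and 8.08% and 7.95% were entries without a feature. Whether any of these entries came from the rpo genes was not tested.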

How the results depend on the processing

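No paired analysis was possible because there is only 1 group. The order rpoC2, rpoB, rpoC1 stood under each alternative for levels and ratios, all planned. Rescaling changes all levels alike, so it could not change that order. The single-library settings repeat the order already given for each library. The mean FPKM of rpoB, rpoC1 and rpoC2 was 18.6, 0.430 and 87.0 with OrsaiCp01 left out of the gene total, and 21.9, 0.507 and 102 on the OrsaiCp total. With a single library it ran from 10.5 to 11.4, from 0.156 to 0.351 and from 49.7 to 52.6. The ratio of rpoC1 to rpoB ran from 0.0149 to 0.0307, that of rpoC2 to rpoB from 4.61 to 4.75 and that of rpoC2 to rpoC1 from 149.98 to 319. With an effective length (length less 300 bases, plus 1) they were 0.0242, 4.54 and 214. The share of other OrsaiCp identifiers below rpoB was 19.7%, with 16.7% among those of at least 300 bases and 22.2% among those with a single plastid symbol. For rpoC2 it was 31.1%, with 28.6% and 30.6%. For rpoC1 it was 0% and ran from 0% to 3.28% with a single library. OrsaiCp identifiers called between the libraries were 15, and 28 with OrsaiCp totals, a scaling that shifts all ratios. The log2 ratios of the rpo genes kept direction and side of the threshold in 20 of 20 alternatives. Their adjusted p by the exact binomial test ran from 0.0815 (rpoC2, OrsaiCp totals) to 0.97. Pseudocounts do not enter the p-value and count filters do not change a ratio, so part of that tally was fixed in advance. The calls for rps2 and atpI were lost with DESeq2 size factors, which were 1 for both libraries and left counts unscaled. They were kept in the other 6 alternatives, of which the pseudocounts could not change a call. rpoC1 has too few counts for the filter at 100. All 6 closest identifiers were the same with FPKM pseudocounts of 0.01 and 1. Depth limits rpoC1 most, with 13 and 6 counts in libraries 1 and 2.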

Other observations

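The rpoA trough was the steepest in the plastid series. From OrsaiCp36, whose length of 483 matches no plastid protein-coding gene, to OrsaiCp37 (rpoA) the level per kb changed 75760-fold in library 1 and 79599-fold in library 2, the largest of the 63 steps in both. The third largest step led to OrsaiCp19 (ndhJ), which had 17 counts in library 1 and 11 in library 2 on 480 bases. Levels under 20 counts per kb in library 1 were found, beside rpoC1 and rpoA, for OrsaiCp45 (rpl22), OrsaiCp50 (rps15), OrsaiCp51, OrsaiCp64 and OrsaiCp65, with 1 to 8 counts each in that library.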
